A study of Mus musculus with 2 samples.

Results

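Netrins and their Dcc and Unc5 receptors were followed across the cell classes of the embryonic day 16.5 (E16.5) mouse cortex. The 10 genes were taken by name: the netrins *Ntn1* and *Ntn4*, the netrin-G genes *Ntng1* and *Ntng2*, the receptor genes *Dcc* and *Neo1*, and the Unc5 receptor genes *Unc5a*, *Unc5b*, *Unc5c* and *Unc5d*. All 10 were among the 32285 genes of the matrices, and all 10 passed the filter on low counts that left 16398 genes for testing. Single cells of 2 embryos, numbered 4 and 5 here, were sequenced with the 10x Genomics 3′ chemistry. Both embryos are given as wild type (WT) at E16.5 and as controls of an *Eomes*-Cre mouse line (labelled EomesMllt3), named for *Eomes*, a gene of intermediate progenitors. Whether these embryos carried Cre is not given in the sources used here. The mice were C57BL/6J, and the cortex was dissociated with papain, although the tissue label reads brain hemispheres. No treatment or mutant was included, so that the comparisons are between cell classes and n = 2 embryos throughout.

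Netrins are secreted laminin-like proteins that guide growing axons and migrating cells. Dcc and Neo1, close relatives with immunoglobulin and fibronectin domains, mediate attraction to netrin-1, whereas the Unc5 receptors mediate repulsion, alone or together with Dcc. The netrin-Gs are held in the membrane by a glycosylphosphatidylinositol anchor and bind the postsynaptic adhesion proteins Lrrc4c and Lrrc4, not Dcc or Unc5. In the developing cortex these genes are known for their part in callosal axon guidance, the radial migration of newborn excitatory neurons, the tangential migration of interneurons and the branching of blood vessels.

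Embryo 4 gave 12825 barcodes with 124318613 unique molecular identifiers (UMIs) and embryo 5 gave 12289 barcodes with 117679925 UMIs. After filtering, 9932 and 10416 cells with a median of 10035 and 8819 UMIs were kept, and 26 of the kept barcode sequences occurred in both libraries. The cells fell into 27 clusters, with the netrin and receptor genes kept out of the clustering, and 10 classes with at least 30 cells in each embryo were named from marker genes. These were radial glia-like (RGC-like, 1401 and 1472 cells), intermediate progenitor-like (IPC-like, 951 and 1008), immature excitatory neuron-like (1205 and 1215), upper-layer neuron-like (672 and 783), deep-layer neuron-like (795 and 837), Cajal-Retzius neuron-like (84 and 80), MGE interneuron-like (673 and 646), CGE interneuron-like (328 and 390), LGE-type GABAergic neuron-like (400 and 282) and vascular cells (74 and 76), MGE, CGE and LGE being the medial, caudal and lateral ganglionic eminences. Clusters without a name held 33.3% and 33.9% of the cells. *Emx1*, a gene of dorsal progenitors, reached 50.5 and 53.4 CPM in RGC-like and 163 and 133 CPM in IPC-like cells, against 9.23 and 6.11 CPM in LGE-type cells. These class values do not show that all cells are cortical, and 1 RGC-like cluster with ganglionic eminence genes is described below. Of the markers of a class, 10 of 12 were highest in RGC-like and 8 of 8 in Cajal-Retzius neuron-like cells, but only 3 of 10 in the LGE-type, 3 of 9 in the upper-layer and 4 of 8 in the immature excitatory class. The LGE-type class was highest in *Six3*, *Isl1* and *Rarb*, but not in *Meis2*, *Pbx3* or *Tshz1*. It also had the highest level of the MGE marker *Nkx2-1*, at 44.7 and 9.17 CPM, and a mean of 368 CPM of *Sst*. Its name therefore stands for the best marker score only.

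Levels are given in CPM, the UMIs of a gene as a share of all UMIs of its class, scaled to the usual common total, in embryo 4 and then in embryo 5. Each gene is compared with itself across classes. A class in which no UMI was found could hold up to 3 counts, and intervals cover counting error only.

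*Ntn1*, the netrin best known as a midline attractant, was low in nearly all neurons of the cortex and high in a few other populations. It measured 72.6 and 48.1 CPM in vascular cells, 60.9 and 45.4 CPM in LGE-type GABAergic neuron-like cells and 26.6 and 28.5 CPM in RGC-like cells. The vascular and LGE-type values overlapped, and both lay above the RGC-like values. CGE interneuron-like cells followed with 9.55 and 15.4 CPM. The other 6 classes stayed between 0.803 and 4.01 CPM. Within the vascular class all *Ntn1* UMIs came from the mural-like cluster, at 90.4 and 75.9 CPM, and none from the endothelial-like cluster of 24 and 30 cells. Among RGC-like cells 1 cluster of 160 and 162 cells, of which *Ntn1* itself is a leading gene, reached 213 and 203 CPM and supplied 309 of 418 and 263 of 431 *Ntn1* UMIs. The other RGC-like clusters had 9.53 and 17.1 CPM and, for the cycling one, 5.45 and 7.65 CPM. The *Ntn1*-rich cluster carried *Gsx2*, a factor of ganglionic eminence progenitors, at 48.8 and 46.2 CPM, and *Nkx2-1* at 86.7 and 7.70 CPM, against 8.26 and 23.1 CPM of the cortical gene *Emx1*.

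*Ntn4*, a netrin that also binds laminins in basement membranes, was highest in progenitors. RGC-like cells had 66.1 and 69.5 CPM and IPC-like cells 53.1 and 60.2 CPM. The ranges of these classes did not overlap, but their difference did not pass the test given further on. CGE interneuron-like cells had 28.7 and 42.3 CPM, Cajal-Retzius neuron-like cells 27.5 and 28.1 CPM and MGE interneuron-like cells 23.9 and 24.2 CPM. From there the level went down over LGE-type cells (16.2 and 16.6 CPM), immature excitatory neuron-like cells (16.2 and 13.7 CPM) and deep-layer neuron-like cells (9.07 and 7.29 CPM). Upper-layer neuron-like cells had 1.09 and 1.34 CPM, from 8 and 10 UMIs. Vascular cells had 0 UMIs in embryo 4, which allows up to 4.27 CPM, and 4 UMIs, 4.93 CPM, in embryo 5.

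The netrin-G genes were highest in different classes, and Cajal-Retzius neuron-like cells ranked among the higher classes for both. *Ntng1*, which encodes the partner of Lrrc4c, measured 164 and 134 CPM in LGE-type cells, 139 and 112 CPM in RGC-like cells and 84.9 and 50.2 CPM in Cajal-Retzius neuron-like cells. The LGE-type and RGC-like values overlapped. By share the RGC-like mean was highest: in cells thinned to 2000 UMIs, 17.5% and 12.9% held *Ntng1*, against 13.1% and 9.64% of LGE-type cells. The *Ntng1* of Cajal-Retzius neuron-like cells, 102 and 50 UMIs, came from only 11 of 84 and 8 of 80 cells. IPC-like cells had 23.7 and 14.9 CPM, and immature excitatory, upper-layer and deep-layer neuron-like cells between 1.87 and 8.37 CPM. *Ntng2*, which encodes the partner of Lrrc4, measured 152 and 148 CPM in Cajal-Retzius neuron-like, 105 and 112 CPM in upper-layer neuron-like, 90.0 and 96.0 CPM in immature excitatory neuron-like and 87.4 and 83.7 CPM in IPC-like cells. These 4 classes did not overlap with each other or with the rest. Deep-layer neuron-like cells had 12.1 and 17.7 CPM, RGC-like cells 4.65 and 3.84 CPM, and MGE and CGE interneuron-like cells between 0.465 and 1.69 CPM. After thinning each cell to 2000 UMIs, *Ntng2* was found in 23.8% and 25.0% of Cajal-Retzius neuron-like cells and in 0.943% and 0.826% of RGC-like cells. Unthinned, these shares were 81.0% and 68.8% (median 13547 and 12159 UMIs per cell) and 3.50% and 2.51% (median 10895 and 9767 UMIs).

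**Figure D1:**
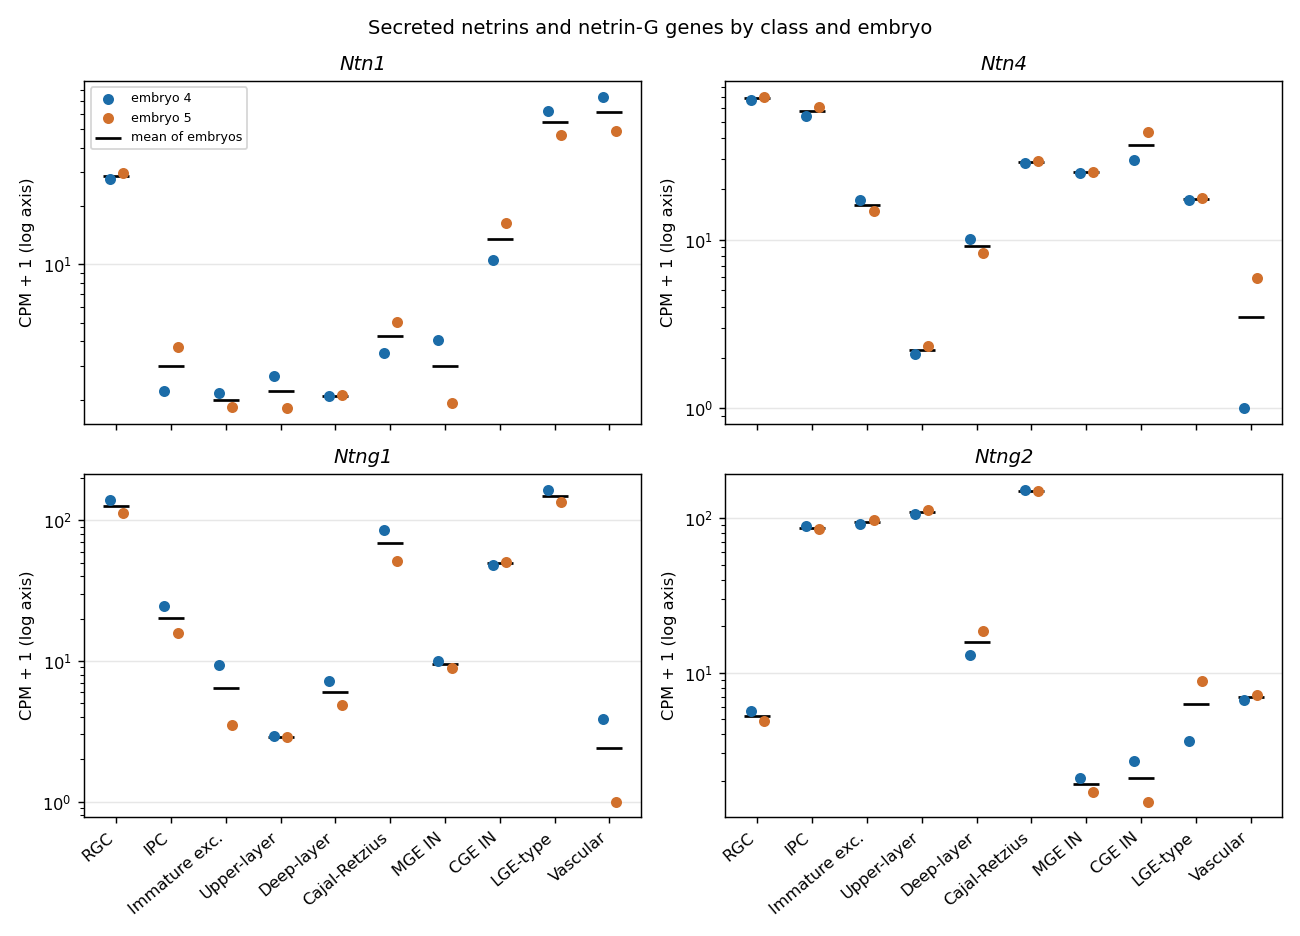
Levels of the netrin and netrin-G genes in the 10 tested classes, as CPM + 1 on a log axis. Each point is 1 embryo and each bar the mean of both. Vascular and LGE-type cells stand above the other classes for *Ntn1*, progenitors for *Ntn4*, LGE-type and RGC-like cells for *Ntng1*, and Cajal-Retzius neuron-like cells for *Ntng2*, where MGE and CGE interneuron-like cells stayed between 0.465 and 1.69 CPM.

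*Dcc* was found in all 10 classes. Its gene spans 1098 kb of chromosome 18 (71253613 to 72351228, GRCm38.p6), and 418411 of its UMIs fell in kept cells. LGE-type cells had 3704 and 4138 CPM, immature excitatory neuron-like cells 3066 and 3092 CPM and Cajal-Retzius neuron-like cells 2948 and 2897 CPM. The LGE-type values did not overlap with any other tested class. Unnamed clusters 5 and 10, which also scored best as immature excitatory neurons, had less and more *Dcc* than the named class, as given further on. IPC-like cells (2269 and 2315 CPM), deep-layer neuron-like cells (2301 and 2247 CPM) and upper-layer neuron-like cells (2237 and 2056 CPM) formed the next group, in which the IPC-like and deep-layer ranges overlapped. Interneurons had less, with 1048 and 961 CPM in CGE and 602 and 591 CPM in MGE interneuron-like cells. RGC-like cells had 356 and 335 CPM, and vascular cells 92.5 and 13.6 CPM. The endothelial-like cluster of embryo 4 also held *Neurod6*, a gene of excitatory neurons, at 238 CPM, against 20.2 CPM in embryo 5, and its *Dcc* was 324 against 30.2 CPM. The part of neural RNA in those vascular values was not tested.

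The share of cells with *Dcc* gave another order at the top. At 2000 UMIs per cell, 89.8% and 89.8% of immature excitatory neuron-like cells held a *Dcc* UMI, against 76.3% and 77.5% of LGE-type cells, whose CPM was higher. Upper-layer neuron-like cells had 87.9% and 82.5%, MGE interneuron-like cells 41.2% and 40.0%, RGC-like cells 31.0% and 27.5%, and vascular cells 8.22% and 1.32%. Unthinned shares were 97.1% and 96.6% in immature excitatory neuron-like cells (median 9134 and 7629 UMIs) and 23.0% and 9.21% in vascular cells (median 8656 and 10119 UMIs).

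*Neo1* encodes neogenin, which also binds the repulsive guidance molecules, and was the most evenly spread of the 10 genes, with the highest class mean 3.94-fold above the lowest. It measured 289 and 294 CPM in upper-layer neuron-like, 297 and 214 CPM in Cajal-Retzius neuron-like and 241 and 250 CPM in immature excitatory neuron-like cells. The Cajal-Retzius values spread over those of both other classes. IPC-like cells had 210 and 214 CPM, RGC-like cells 171 and 182 CPM, LGE-type cells 171 and 149 CPM and deep-layer neuron-like cells 151 and 135 CPM. The lowest values were 108 and 118 CPM in CGE interneuron-like, 101 and 108 CPM in MGE interneuron-like and 75.4 and 72.7 CPM in vascular cells.

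By mean level the 4 Unc5 receptor genes each peaked in another class. The *Unc5c* peak was not settled, since its CGE interneuron-like and Cajal-Retzius neuron-like ranges overlapped. Cajal-Retzius neuron-like cells were also the highest class of *Unc5a*. *Unc5d*, known for its role in the multipolar stage of radially migrating neurons, had 5400 and 5858 CPM in immature excitatory neuron-like cells, 1408 and 1284 CPM in IPC-like cells and 908 and 871 CPM in upper-layer neuron-like cells. None of these values overlapped with those of another tested class. At a coarser clustering (resolution 0.5) the highest class of *Unc5d* was the IPC-like one. LGE-type cells had 561 and 348 CPM, Cajal-Retzius neuron-like cells 270 and 171 CPM and MGE interneuron-like cells 188 and 188 CPM. RGC-like cells had 101 and 119 CPM and CGE interneuron-like cells 107 and 60.0 CPM. Deep-layer neuron-like cells had the lowest mean, with 25.6 and 27.3 CPM, and the mean of immature excitatory neuron-like cells was 213-fold above theirs. *Unc5d* was also the leading gene of the immature excitatory cluster, although it had no part in the clustering. At 2000 UMIs per cell, *Unc5d* was found in 98.3% and 98.2% of immature excitatory neuron-like cells, 53.2% and 49.5% of IPC-like cells, 13.1% and 13.2% of RGC-like cells and 3.91% and 2.28% of deep-layer neuron-like cells. Vascular cells had 144 and 17.3 CPM, in embryo 5 below the deep-layer values, and in embryo 4 most of it (95 of 101 UMIs) lay in the endothelial-like cluster that also held *Neurod6*.

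*Unc5c*, a receptor for netrin-1 repulsion, was a gene of interneurons and Cajal-Retzius neurons. CGE interneuron-like cells had 316 and 539 CPM, Cajal-Retzius neuron-like cells 366 and 380 CPM and MGE interneuron-like cells 289 and 340 CPM. The CGE range, which was the widest, overlapped with both others, while the Cajal-Retzius values lay above the MGE values. LGE-type cells followed with 154 and 116 CPM, deep-layer neuron-like cells with 48.6 and 74.4 CPM and upper-layer neuron-like cells with 39.3 and 33.7 CPM. Immature excitatory neuron-like, IPC-like, RGC-like and vascular cells stayed between 8.34 and 17.9 CPM. At 2000 UMIs per cell, 34.5% and 31.3% of Cajal-Retzius neuron-like, 26.4% and 25.9% of MGE interneuron-like and 16.6% and 19.3% of CGE interneuron-like cells held an *Unc5c* UMI, against 2.18% and 1.65% of RGC-like cells. By share the Cajal-Retzius neuron-like class was therefore highest, and by level the CGE interneuron-like class.

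*Unc5b*, a receptor of endothelial cells that acts in vessel branching, was high in vascular and Cajal-Retzius neuron-like cells. It measured 152 and 141 CPM in the former and 87.4 and 103 CPM in the latter, with no overlap. Both vascular clusters held it, at 108 and 188 CPM in endothelial-like and 163 and 113 CPM in mural-like cells. The next values, in CGE interneuron-like cells, were 10.7 and 6.05 CPM, followed by 6.35 and 6.99 CPM in LGE-type cells. MGE interneuron-like cells held 1 UMI in embryo 4 and 0 in embryo 5, which allows up to 0.698 CPM. *Unc5a*, which encodes a neuronal Unc5 receptor, had 47.5 and 27.1 CPM in Cajal-Retzius neuron-like cells and between 7.86 and 13.2 CPM in LGE-type, IPC-like and excitatory neuron-like cells. All of these lay below the Cajal-Retzius values, and within them the deep-layer values were highest, at 13.2 and 12.9 CPM. MGE and CGE interneuron-like cells had between 2.63 and 5.82 CPM, RGC-like cells 0.827 and 0.795 CPM, and vascular cells 0 UMIs in both embryos, which allows up to 4.27 and 3.70 CPM.

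**Figure D2:**
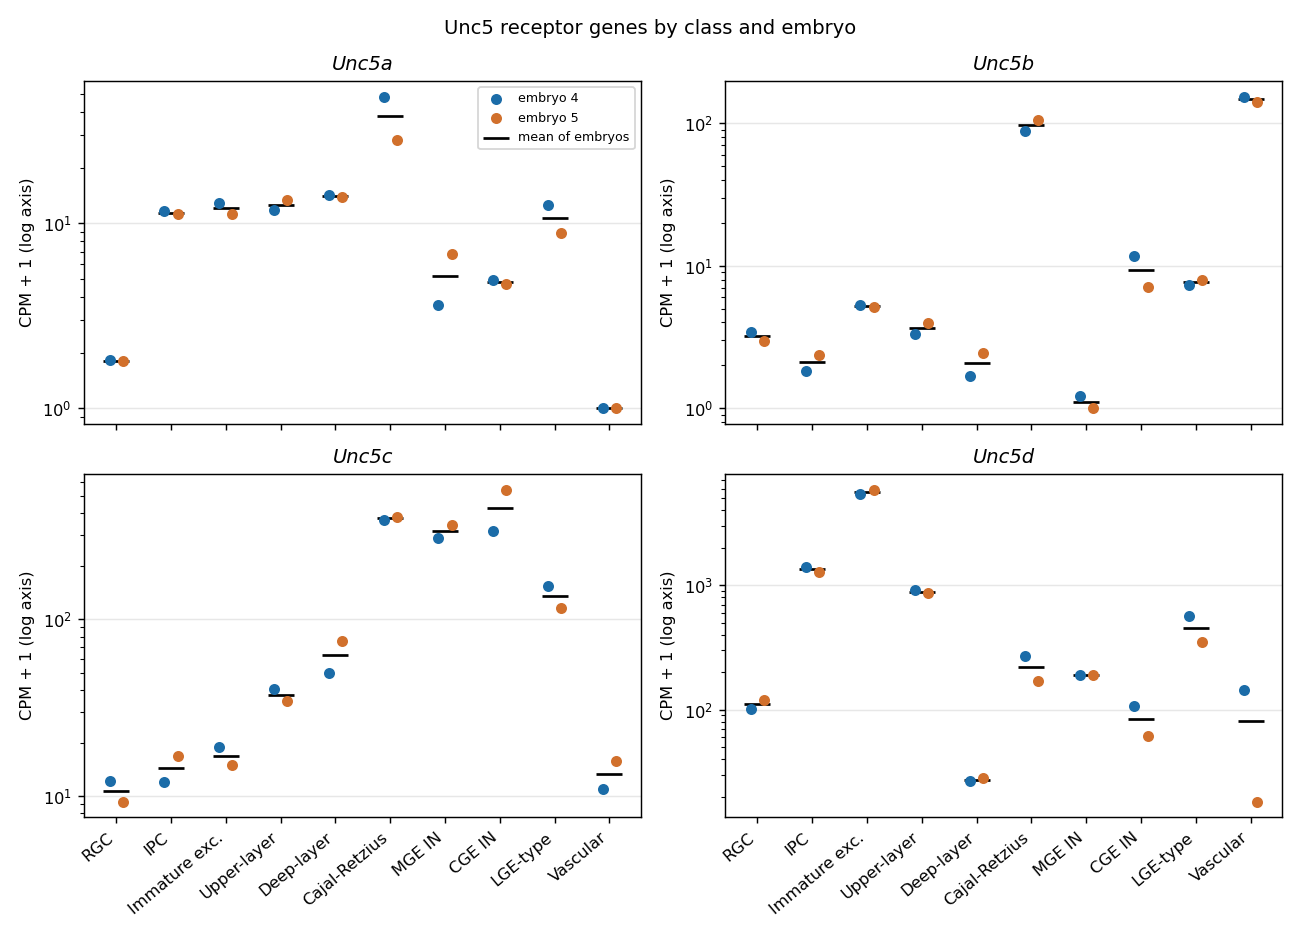
Levels of the Unc5 receptor genes in the 10 tested classes, as CPM + 1 on a log axis. Each point is 1 embryo and each bar the mean of both. *Unc5d* peaked in immature excitatory neuron-like cells (5400 and 5858 CPM) and had its lowest mean in deep-layer neuron-like cells, *Unc5c* was high in interneuron-like and Cajal-Retzius neuron-like cells, *Unc5b* in vascular and Cajal-Retzius neuron-like cells, and *Unc5a* in Cajal-Retzius neuron-like cells. At resolution 0.5 *Unc5d* was highest in IPC-like cells.

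**Figure D3:**
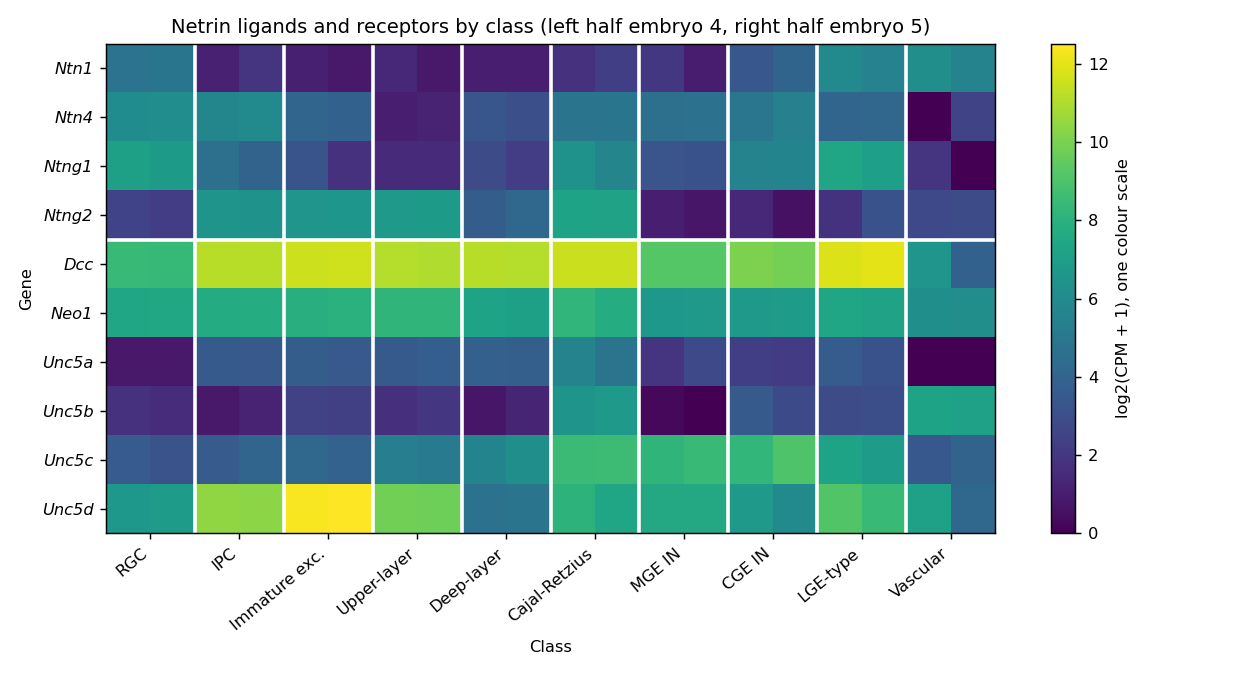
Levels of the 10 genes in the 10 tested classes, as log2(CPM + 1), with embryo 4 in the left and embryo 5 in the right part of each class. A colour is to be read along the row of a gene. *Neo1* varied least between its highest and lowest class mean, by 3.94-fold, and *Unc5d* by 213-fold.

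For 7 of the 10 genes RefSeq gives a promoter in the table used (GRCm38.p6, the patch release of mm10). The 250 bases before the start are shown for the 4 genes whose listed start is the outermost of the gene. By mean level these are highest in different classes. Ntn4 is progenitor-high, and Ntng2 is high in Cajal-Retzius, upper-layer, immature excitatory and IPC-like cells but not in deep-layer neurons. Unc5b is high in vascular and Cajal-Retzius cells, and Unc5c in interneurons and Cajal-Retzius cells. Capitals mark CAGATG, an E-box of the kind that proneural factors bind. TAATTA, a homeodomain core, and GGTGTG, the core of a T-box site, were searched as well, all 3 on both strands.
Ntn4: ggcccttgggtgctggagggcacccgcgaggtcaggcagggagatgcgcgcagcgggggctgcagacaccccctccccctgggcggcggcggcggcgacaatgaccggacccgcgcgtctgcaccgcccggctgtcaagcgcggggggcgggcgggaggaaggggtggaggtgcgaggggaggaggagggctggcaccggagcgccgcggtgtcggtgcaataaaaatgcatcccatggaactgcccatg
Ntng2: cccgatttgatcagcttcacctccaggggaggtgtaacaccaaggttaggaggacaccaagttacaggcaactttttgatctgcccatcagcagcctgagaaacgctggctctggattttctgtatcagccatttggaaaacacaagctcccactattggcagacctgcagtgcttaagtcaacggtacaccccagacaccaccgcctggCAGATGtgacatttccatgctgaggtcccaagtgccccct
Unc5b: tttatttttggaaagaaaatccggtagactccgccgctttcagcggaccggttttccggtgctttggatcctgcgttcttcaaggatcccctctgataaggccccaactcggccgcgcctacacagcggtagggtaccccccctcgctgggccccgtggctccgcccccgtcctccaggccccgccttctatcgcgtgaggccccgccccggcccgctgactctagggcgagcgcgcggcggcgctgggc
Unc5c: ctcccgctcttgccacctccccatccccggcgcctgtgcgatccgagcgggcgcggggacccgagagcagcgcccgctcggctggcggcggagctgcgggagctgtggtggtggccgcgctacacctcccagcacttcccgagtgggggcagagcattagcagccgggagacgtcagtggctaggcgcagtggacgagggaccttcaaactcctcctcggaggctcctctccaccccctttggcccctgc
The windows lie before the starts on chromosome 10 (93640799 to 93641048, plus strand), chromosome 2 (29248100 to 29248349, minus strand), chromosome 10 (60831582 to 60831831, minus strand) and chromosome 3 (141465314 to 141465563, plus strand). CAGATG occurred once, in Ntng2, and 14.4% of all 32851 promoters of this length hold it. Neither TAATTA (4.84% of promoters) nor GGTGTG (16.3%) occurred in the 4 windows. Their share of G and C was 73.2% in Ntn4, 52.4% in Ntng2, 66.8% in Unc5b and 71.2% in Unc5c, against a median of 52.4% over all promoters, and they held 26, 4, 27 and 23 CpG dinucleotides. A match of letters is a description of the window and not a bound site.

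The 10 genes were next compared between neighbouring classes with edgeR's quasi-likelihood test on the UMI sums of each embryo and class, with Benjamini-Hochberg adjustment over 16398 genes and an adjusted p under 0.05 as the threshold. Differences are log2 fold changes with their standard error (SE). Between IPC-like and RGC-like cells, 5 of the 10 genes were higher in IPC-like cells, where 21.2% of all genes were, and 3 were lower, as were 21.4% of all genes. *Ntng2* rose by 4.41 (SE 0.17, adjusted p = 1.26e-13), *Unc5a* by 3.74 (SE 0.30, adjusted p = 7.34e-09), *Unc5d* by 3.70 (SE 0.34, adjusted p = 3.36e-08) and *Dcc* by 2.82 (SE 0.24, adjusted p = 7.98e-09). *Neo1* was higher by 0.35 (SE 0.11, adjusted p = 0.0128), a call lost with RLE size factors, with thinned cells and with doublets kept. *Ntn1* fell by 3.72 on the log2 scale (SE 0.29, adjusted p = 2.60e-09), and without the *Ntn1*-rich RGC-like cluster by 2.25 (adjusted p = 3.80e-05). Without embryo 5 it was -4.32, a value with no test, as are all values without an embryo. *Ntng1* fell by 2.60 (SE 0.24, adjusted p = 2.78e-08). *Unc5b* was lower by a log2 fold change of -0.92 (adjusted p = 0.0430), at 1.10 against 2.20 CPM, which was reversed to 0.89 (adjusted p = 0.00818) at the coarser clustering of resolution 0.5. The *Unc5b* call was lost with a limit of 5% mitochondrial UMIs, with thinned cells and with doublets kept. It was also lost without the *Ntn1*-rich cluster and at resolution 2 (-0.08, adjusted p = 0.842). *Ntn4* (-0.17, adjusted p = 0.311) and *Unc5c* (0.55, adjusted p = 0.155) did not pass. *Ntn4* was lower in IPC-like cells and passed at resolution 0.5 (adjusted p = 3.77e-07) and at resolution 2 (-0.38, adjusted p = 0.0176), and *Unc5c* at resolution 0.5 (adjusted p = 0.0120) and with no filter on low counts (adjusted p = 0.00314).

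From IPC-like to immature excitatory neuron-like cells, 3 of the 10 genes rose, against 18.5% of all genes, and 2 fell, against 18.3%. *Unc5d* rose further, by 2.17 (SE 0.32, adjusted p = 1.67e-05), and *Unc5b* rose by 2.05 (SE 0.34, adjusted p = 5.52e-05) from a low level. *Neo1* was higher by 0.32 (SE 0.11, adjusted p = 0.0275), a call lost with doublets kept. *Ntn4* fell by 1.81 (SE 0.15, adjusted p = 7.18e-09) and *Ntng1* by 1.69 (SE 0.32, adjusted p = 3.03e-04). *Dcc* differed by 0.54 (SE 0.22, adjusted p = 0.0669), and with the embryo as a block by 0.54 (adjusted p = 0.0180). The size of the *Unc5d* step depended on where the classes were divided. It was 0.80 (adjusted p = 0.0722) at resolution 2 and -0.14 (adjusted p = 0.767) at resolution 0.5, and the *Ntng1* step was 0.28 (adjusted p = 0.595) at resolution 2 and -2.45 without embryo 4.

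Between immature excitatory neuron-like and upper-layer neuron-like cells, 2 genes were higher in the upper-layer class, against 17.4% of all genes, and 3 lower, against 15.6%. *Unc5d* fell by 2.61 (SE 0.33, adjusted p = 2.42e-06), *Ntn4* by 3.55 (SE 0.29, adjusted p = 6.43e-09) and *Ntng1* by 1.50 (SE 0.53, adjusted p = 0.0353). *Unc5c* rose by 1.24 (SE 0.27, adjusted p = 0.00113) and *Neo1* by 0.30 (SE 0.11, adjusted p = 0.0382). The *Neo1* call was lost with thinned cells, at resolution 2, with doublets kept and with the usual number of doublet neighbours, and *Ntng1* was at -0.35 without embryo 4. *Dcc*, at -0.47 (SE 0.22), had an adjusted p of 0.120 without and 0.0410 with the embryo as a block. At resolution 0.5 *Ntn4* (1.12, adjusted p = 0.00489), *Dcc* (0.64, adjusted p = 0.0438), *Ntng1* (0.78, adjusted p = 0.124) and *Neo1* (-0.12, adjusted p = 0.451) had the opposite sign, and *Ntng1* was at 2.04 (adjusted p = 4.64e-05) with the usual number of doublet neighbours.

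Deep-layer and upper-layer neuron-like cells differed in 7 of the 10 genes. Those higher in the deep layers were 3 genes, against 17.3% of all genes, and those lower were 4, against 15.0%. *Unc5d* was lower by a log2 fold change of -4.99 (SE 0.38, adjusted p = 2.12e-09), *Ntng2* by -2.79 (SE 0.16, adjusted p = 2.04e-11), *Unc5b* by -1.23 (SE 0.39, adjusted p = 0.0184) and *Neo1* by -0.94 (SE 0.11, adjusted p = 1.20e-06). *Ntn4* was higher by 2.82 (SE 0.32, adjusted p = 8.19e-07), *Ntng1* by 1.50 (SE 0.55, adjusted p = 0.0418) and *Unc5c* by 0.84 (SE 0.24, adjusted p = 0.0109). *Dcc* (0.17, adjusted p = 0.620) did not pass, but it did at resolution 2 (0.89, adjusted p = 0.00995) and with the usual number of doublet neighbours (0.51, adjusted p = 0.0402). Only 4 of the 10 genes were called with thinned cells, at resolution 0.5, with a limit of 500 genes per cell or with doublets kept, and *Unc5c* was -0.16 at resolution 2. With the usual number of doublet neighbours *Unc5c* was reversed to -1.66 (adjusted p = 1.26e-04) and the *Neo1* call was lost (-0.08, adjusted p = 0.597).

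MGE interneuron-like cells were compared with the mean of deep-layer and upper-layer neuron-like cells. They had the highest mean *Sst* of the tested classes, 718 CPM, against 368 CPM in LGE-type cells. Of the 10 genes 3 were higher in the interneurons, against 16.4% of all genes, and 5 lower, against 18.8%. *Ntn4* was higher by 2.78 (SE 0.21, adjusted p = 1.22e-09), *Unc5c* by 2.59 (SE 0.18, adjusted p = 4.75e-10) and *Ntng1* by 1.30 (SE 0.44, adjusted p = 0.0269), the last of these at -0.92 (adjusted p = 0.0232) with the usual number of doublet neighbours. *Ntng2* was lower by a log2 fold change of -5.58 (SE 0.31, adjusted p = 9.70e-12), *Dcc* by -2.03 (SE 0.21, adjusted p = 1.93e-07), *Unc5a* by -1.69 (SE 0.27, adjusted p = 4.93e-05; -2.33 without embryo 5) and *Neo1* by -1.10 (SE 0.11, adjusted p = 4.78e-08). *Unc5b* was the fifth lower gene (adjusted p = 6.67e-04), with 1 UMI in MGE interneuron-like against 59 in excitatory neuron-like cells, and its sign turned at resolution 2 (0.77, adjusted p = 0.0712). *Unc5d* (0.16, adjusted p = 0.724) and *Ntn1* (0.66, adjusted p = 0.365) did not pass, the *Unc5d* value being set against a mean of classes that themselves differ widely. *Ntn1* passed as higher at resolution 2 (1.94, adjusted p = 3.17e-04). *Unc5d* passed as higher at resolution 0.5 (0.74, adjusted p = 0.0287) and as lower with the usual number of doublet neighbours (-0.75, adjusted p = 0.0104).

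The interneuron classes differed less from each other. In CGE against MGE interneuron-like cells 3 genes were higher, against 6.42% of all genes, and 1 lower, against 5.72%. *Ntn1* was higher by 2.55 (SE 0.47, adjusted p = 7.29e-04) and *Ntng1* by 2.44 (SE 0.38, adjusted p = 1.25e-04), but at resolution 2 both calls were lost, that of *Ntn1* at an adjusted p of 0.0880 and that of *Ntng1* at -0.08 (adjusted p = 0.937). *Ntn1* was at 3.95 without embryo 4 and at 1.52 without embryo 5. *Unc5b* had 32 UMIs in CGE against 1 in MGE interneuron-like cells (adjusted p = 4.47e-06). *Unc5d* was lower by a log2 fold change of -1.28 (SE 0.36, adjusted p = 0.0237), a call lost with DESeq2 (adjusted p = 0.150), with a limit of 5% mitochondrial UMIs and with doublets kept. *Dcc* was 0.66 higher (SE 0.23), with an adjusted p of 0.0648 without and 0.0155 with the embryo as a block. *Unc5c* (0.37, SE 0.21, adjusted p = 0.339) did not pass, but it did with no filter on low counts (0.37, adjusted p = 0.0164).

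Vascular cells were set against the mean of the 7 neural classes of the comparisons above. These leave out Cajal-Retzius neuron-like cells, with *Unc5b* at 87.4 and 103 CPM, and LGE-type cells, with *Ntn1* at 60.9 and 45.4 CPM. *Unc5b* was higher by 6.35 (SE 0.19, adjusted p = 1.75e-16) and *Ntn1* by 4.20 (SE 0.30, adjusted p = 2.15e-10), 2 of 10 genes against 25.5% of all genes. The other calls were all lower, 7 of 10 genes against 22.9%. *Dcc* was lower by a log2 fold change of -4.83 (SE 0.29, adjusted p = 1.59e-11), *Ntn4* by -2.85 (SE 0.53, adjusted p = 1.41e-04), *Unc5d* by -2.16 (SE 0.37, adjusted p = 5.32e-05), *Unc5c* by -2.08 (SE 0.50, adjusted p = 0.00166) and *Neo1* by -1.35 (SE 0.14, adjusted p = 8.44e-08). Without embryo 4, whose endothelial-like cluster held *Neurod6*, *Dcc* was at -6.71, *Unc5d* at -4.26 and *Ntn4* at -1.98, and without embryo 5 *Dcc* was at -4.00 and *Unc5d* at -1.30, while *Ntn4* then had 0 vascular UMIs. *Ntng1* (2 UMIs, adjusted p = 0.0205) and *Unc5a* (0 UMIs, adjusted p = 0.00170) were too low in vascular cells for a fold. *Ntng2*, at -1.22 (SE 0.50), had an adjusted p of 0.0527 without and 0.0485 with the embryo as a block. With doublets kept, all 7 lower calls were lost, and *Ntng1* (1.60, adjusted p = 6.63e-04) and *Unc5c* (1.02, adjusted p = 4.39e-04) were higher in the vascular class.

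**Figure D4:**
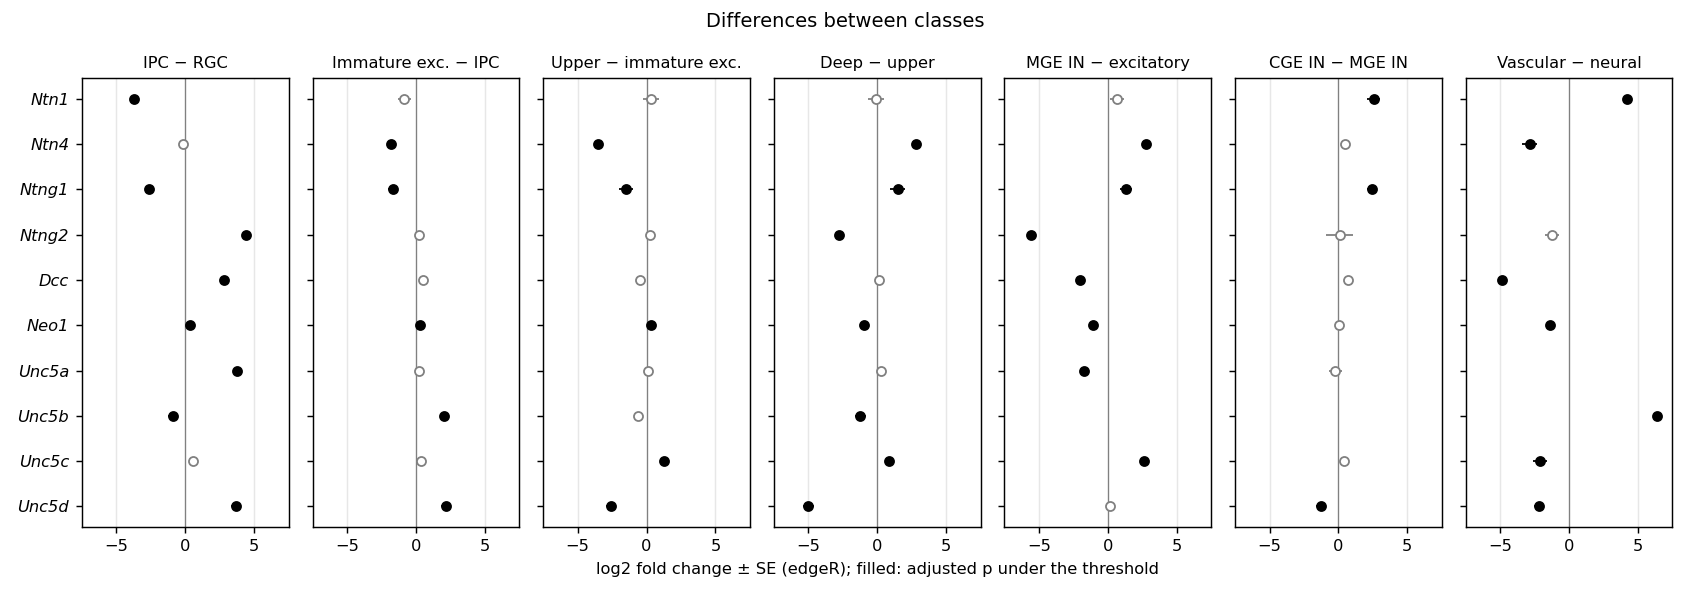
Log2 fold changes of the 10 genes in the 7 comparisons between classes, with bars of 1 SE. Filled points passed an adjusted p under 0.05 in edgeR's quasi-likelihood test. *Unc5d* lies at 3.70 in IPC-like against RGC-like and at 2.17 in immature excitatory neuron-like against IPC-like cells. The latter value was -0.14 at resolution 0.5 and 0.80 at resolution 2. It lies at -2.61 in upper-layer against immature excitatory and at -4.99 in deep-layer against upper-layer neuron-like cells.

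Over the 10 genes the median log2 fold change was 0.45 in IPC-like against RGC-like and 0.27 in immature excitatory neuron-like against IPC-like cells. It was -0.17 in upper-layer against immature excitatory and 0.05 in deep-layer against upper-layer neuron-like cells. It was -0.47 in MGE interneuron-like against excitatory neuron-like cells, 0.44 in CGE against MGE interneuron-like cells and -2.12 in vascular against neural cells. The medians of all 16398 genes lay between -0.11 and 0.02 in these comparisons. The comparisons share classes and are not independent of each other.

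Further genes of netrin signalling were taken from a list of 36 names, with binding partners and intracellular effectors, of which 35 were tested. In IPC-like against RGC-like cells 13 were higher and 9 lower, against 21.2% and 21.4% of all genes, with *Dscam*, a netrin receptor of the immunoglobulin family, higher by 2.91 (SE 0.29) and the *Rgma* gene for a Neo1 ligand at -2.41 (SE 0.16). In immature excitatory neuron-like against IPC-like cells 12 were higher and 8 lower, against 18.5% and 18.3%. *Adgrl3*, a latrophilin in complexes of Unc5 and Flrt proteins, was higher by 2.82 (SE 0.24), and *Gpc3*, a glypican that binds Unc5 receptors, was at -2.63 (SE 0.41). In upper-layer against immature excitatory neuron-like cells 18 were higher and 6 lower, against 17.4% and 15.6%, with the actin-binding *Ablim1* higher by 5.01 (SE 0.26) and *Myo10*, a myosin that carries Dcc along filopodia, at -3.98 (SE 0.23). The ubiquitin ligases *Trim67* (3.47, SE 0.17) and *Trim9* (-2.57, SE 0.16), which both bind Dcc, moved in opposite directions there. All genes named from the list passed the same adjusted threshold.

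In deep-layer against upper-layer neuron-like cells 9 genes of the list were higher and 5 lower, against 17.3% and 15.0% of all genes, with *Flrt3*, an Unc5 ligand, at -3.36 (SE 0.17) and *Trim9* higher by 2.09 (SE 0.16). In MGE interneuron-like against excitatory neuron-like cells 6 were higher and 12 lower, against 16.4% and 18.8%, with *Dscam* at -4.61 (SE 0.28) and *Dscaml1* higher by 2.81 (SE 0.12). In CGE against MGE interneuron-like cells 3 were higher and 6 lower, against 6.42% and 5.72%, with *Myo10* higher by 3.79 (SE 0.34), *Dscam* higher by 3.17 (SE 0.29) and *Adgrl3* at -1.22 (SE 0.22). In vascular against neural cells 16 were higher and 15 lower, against 25.5% and 22.9%, with *Mcam*, an endothelial and mural adhesion receptor, higher by 7.68 (SE 0.25), *Gpc3* by 5.47 (SE 0.33) and *Dock1*, an exchange factor for Rac, by 4.53 (SE 0.13). The medians of the list ran from -0.07 to 0.39.

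*Dcc* and an Unc5 gene were looked for in the same cells, thinned to 2000 UMIs. In IPC-like cells 44.3% and 42.0% held both *Dcc* and *Unc5d*, against 41.0% and 36.2% for the product of the single shares. *Unc5d* was found in 57.5% and 57.4% of IPC-like cells with *Dcc* and in 38.9% and 28.0% of those without. In immature excitatory neuron-like cells 88.1% and 88.0% held both, against a product of 88.3% and 88.1%. In MGE interneuron-like cells 8.31% and 7.99% held *Dcc* and *Unc5d*, above the product of 6.42% and 5.45%, whereas *Dcc* and *Unc5c* met in 8.16% and 8.15%, below the product of 10.9% and 10.3%. These shares describe cells that share a library, and no test was made on them.

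Splitting MGE interneuron-like cells by an *Sst* UMI gave 261 and 269 cells with and 412 and 377 cells without. *Dcc* was 755 and 766 CPM with *Sst* and 467 and 433 CPM without, and *Unc5d* was 232 and 275 CPM with and 149 and 110 CPM without. *Ntn4* went the other way, with 13.5 and 21.1 CPM in cells with *Sst* and 33.1 and 27.0 CPM in those without. *Unc5c* had no common direction, with 254 and 388 CPM against 320 and 297 CPM. Cells with an *Sst* UMI had more UMIs in all, with medians of 7950 and 7078 against 5419 and 5911, and the part of depth in the split was not tested.

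The genes whose pattern over the 10 class means was most like a member were found by Pearson's r of log2(CPM + 1) among 10223 genes. *Ntn1* was closest to *Ano1* (r = 0.98), *Ntn4* to *Alms1* (0.93), *Ntng1* to *Gabra4* (0.93) and *Ntng2* to *6530402F18Rik* (0.99). *Dcc* was closest to *Hacd3* (0.95), *Neo1* to *Zfp746* (0.96), *Unc5a* to *Cript* (0.96), *Unc5b* to *Cd59a* (0.95), *Unc5c* to *Ppp1r37* (0.98) and *Unc5d* to *Cdh8* (0.93), which like *Unc5d* was highest in immature excitatory neuron-like cells. The 10 points of each correlation share 2 libraries, and no p is given.

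The clusters without a class name were excitatory in part (*Neurod6* at 505 to 1313 CPM in clusters 4, 5, 9, 10, 15, 16 and 21), and differed in *Dcc* and *Unc5d*. Cluster 19 was mixed, with *Neurod6* at 618 and 718 CPM beside *Gad2*, a gene of GABAergic neurons, at 159 and 123 CPM. Its hemoglobin transcript *Hbb-bs* was at 23015 and 649 CPM. Cluster 5, led by *Nrp1* and *Pdzrn3*, had 3895 and 4086 CPM of *Unc5d* with 1349 and 1263 CPM of *Dcc*. Its marker score was highest for immature excitatory neurons (1.08, against 0.98 in the cluster named so). It stayed unnamed since more of its leading genes mark another class. Cluster 4, led by *Kcnq5* and *Ldb2*, had only 52.5 and 50.4 CPM of *Unc5d* with 3199 and 2871 CPM of *Dcc*. Cluster 9, led by *Tafa1* and *Tafa2*, had 940 and 1015 CPM of *Unc5d*, 850 and 850 CPM of *Dcc*, and 39.5 and 39.5 CPM of *Unc5a*. Cluster 15, led by *Il1rapl2* and *Nr4a2*, had 172 and 373 CPM of *Unc5c*, above LGE-type cells.

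**Figure D5:**
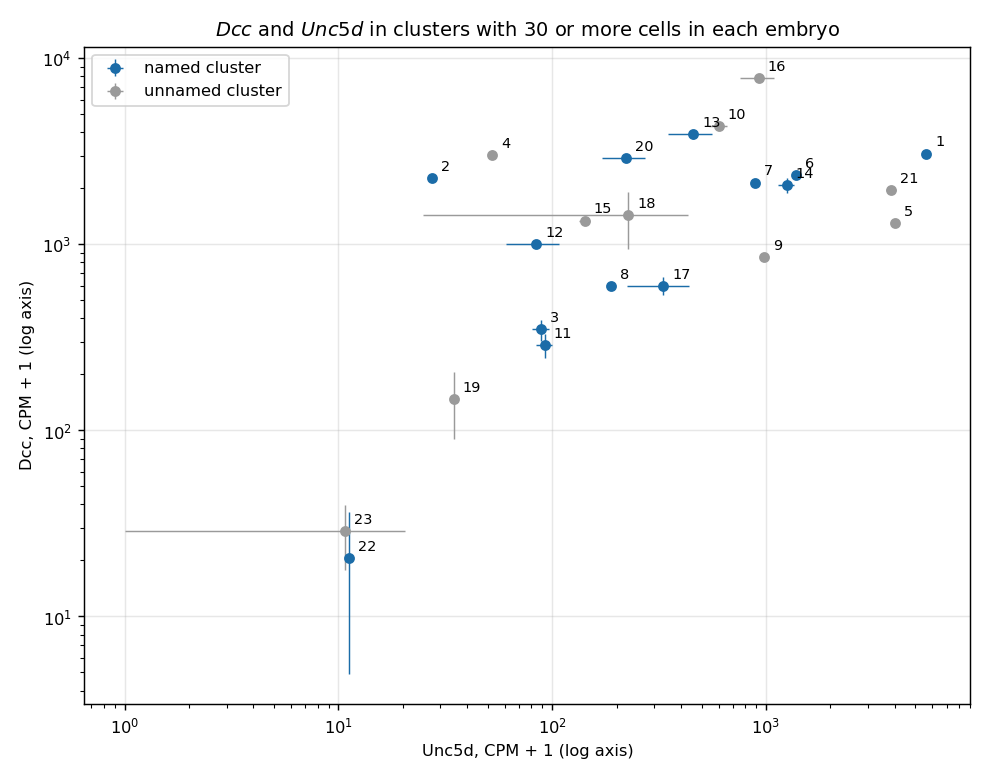
*Dcc* against *Unc5d* in the 23 of 27 clusters with at least 30 cells in each embryo, as CPM + 1 on log axes. Points are means of the 2 embryos and bars span their values, and numbers are clusters. Clusters 1, 5 and 21 lie at the high end of *Unc5d*, cluster 16 at the high end of *Dcc*, and deep-layer neuron-like cluster 2 has high *Dcc* with low *Unc5d*.

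On the genome (GRCm38.p6) *Ntn1* lies on chromosome 11 (68209364 to 68386826), *Ntn4* on chromosome 10 (93641049 to 93745972), *Ntng1* on chromosome 3 (109780050 to 110149972) and *Ntng2* on chromosome 2 (29194726 to 29248099). *Neo1* lies on chromosome 9 (58874679 to 59036614), *Unc5a* on chromosome 13 (54945151 to 55006018), *Unc5b* on chromosome 10 (60762594 to 60831581), *Unc5c* on chromosome 3 (141465564 to 141834924) and *Unc5d* on chromosome 8 (28646717 to 29219671). All are annotated as protein-coding. The genes span 53.4 kb (*Ntng2*) to 573 kb (*Unc5d*) apart from *Dcc*, and whether reads in their introns were counted is not given in the sources used here.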

How the data were processed

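The authors deposited raw UMI counts per gene and barcode, not normalized, made with Cell Ranger on mm10. The submitters' processing notes give version 7.0.0 and the matrix headers 7.1.0, and whether intron reads were counted is not given in the sources used here. From these counts, barcodes with under 1000 genes or over 10% mitochondrial UMIs were left out, and doublets were scored after Scrublet's procedure (947 and 1052 removed). It used 30 neighbours, chosen after seeing that the usual number (156 and 162) removed most cells of rare clusters. The 10 members and the 36 pathway genes (46 in all) were kept out of the clustering (2000 variable genes, 30 principal components, 20 neighbours, Leiden resolution 1; leidenalg 0.10.2, scikit-learn 1.9.0, Python 3.11.15).

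Clusters were named by their mean marker log2 ratio (at least 0.5, margin 0.25, at least 3 markers in 10% of cells), and 10 stayed unnamed. Parts of this rule were set with the clusters in view. UMIs were summed per embryo and class, and all 10 classes with 30 cells in each embryo entered 1 edgeR fit (edgeR 4.0.16, R 4.3.3, TMM, filterByExpr, quasi-likelihood test, Benjamini-Hochberg over 16398 genes), tested on simulated counts. With 2 embryos, p-values measure the spread between these sums only, and classes defined on the same cells are compared. The SE was taken as |log2 fold change| / √F. Sums of 1 embryo come from 1 animal, so the embryo pairs them: the embryo difference correlated between classes at a median of 0.19 (-0.0050 to 0.43 over 45 class pairs, 6691 genes). Depth differed little between embryos, and shares of cells were taken after thinning to 2000 UMIs, which left out 101 and 94 cells. Intervals and limits are at 95% and 3 counts.

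Members and lists were chosen with earlier results of these data known. Beside the members, genes named are list genes past the threshold with a log2 fold change of at least 1 (at most 4 per comparison), genes most like a member, cell type markers and leading genes of clusters. Alternatives were DESeq2 1.42.0, RLE size factors, all genes with a UMI in place of the filter, an embryo block, other limits on genes (500) and mitochondrial UMIs (5%), doublets kept, resolutions 0.5 and 2, thinned cells, Malat1-poor barcodes left out and each embryo left out. The usual doublet neighbours, and RGC-like cells without the *Ntn1*-rich cluster, were added after seeing the data. Some cell type markers and leading genes are not reported here.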

Additional observations from a re-analysis of the deposited data

Results flagged for a closer look

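Unnamed clusters, which entered no comparison, held *Dcc* and *Neo1* above the mean of every tested class in both embryos. *Dcc* averaged 7800 CPM (7604 and 7997) in cluster 16, led by *4930467D21Rik*, *Cntn4* and *Astn2*, and 4326 CPM (4169 and 4483) in cluster 10, led by *Slit3* and *Crym*, against 3921 CPM in LGE-type GABAergic neuron-like cells, the highest tested class. Cluster 16 had 160 and 225 cells, with *Neurod6* at 757 and 937 CPM. Its hemoglobin transcript *Hbb-bs* stood at 2511 and 1072 CPM. Among tested classes *Hbb-bs* reached 619 CPM in embryo 4 (deep-layer neuron-like cells) and 1625 CPM in embryo 5 (IPC-like cells).

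*Neo1* averaged 672 CPM (617 and 727) in cluster 9, led by *Tafa1*, *Tafa2* and *Thsd7a*, 424 CPM (424 and 424) in cluster 10, 390 CPM in cluster 21, led by the noncoding genes *9630028H03Rik*, *Plxna4os3* and *4930545L23Rik*, and 358 CPM (356 and 360) in cluster 15, led by *Il1rapl2*, *Nr4a2* and *Grin2a*. The highest tested class, upper-layer neuron-like cells, averaged 292 CPM.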

How the results depend on the processing

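Of the 70 pairs of a gene and a comparison, 46 passed the threshold, and 21 of these 46 kept their call and direction under all alternatives with a test. The embryo as a replicate block brought 4 pairs past the threshold (*Dcc* in 3 comparisons, *Ntng2* in the vascular one) and changed no other call, with 10 genes tested in each comparison. The number of the 10 genes called fell from 5 to 3 in immature excitatory neuron-like against IPC-like cells at resolution 2 and with doublets kept. It fell from 7 to 4 in deep-layer against upper-layer cells with thinned cells, at resolution 0.5, with 500 genes per cell and with doublets kept, and from 9 to 4 in vascular cells with doublets kept. The highest class was the same for only 5 of 10 genes at resolution 0.5, for 8 without embryo 5 (not *Neo1* and *Unc5c*, whose means were then highest in Cajal-Retzius neuron-like cells) and for 10 without embryo 4. At resolution 0.5 the LGE-type and CGE classes were not found, and CGE against MGE cells could not be compared. There *Ntng1* was highest in RGC-like cells, and *Dcc* and *Unc5c* in Cajal-Retzius neuron-like cells. *Unc5d* was highest there in IPC-like and *Neo1* in immature excitatory neuron-like cells, although their main highest classes were still found. At resolution 2 *Ntn1* was highest in LGE-type and *Ntng1* in RGC-like cells, and with doublets kept *Ntn1* was highest in LGE-type and *Unc5b* in Cajal-Retzius neuron-like cells.

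Log2 fold changes that turned their sign were, at resolution 0.5, *Unc5b* in IPC-like cells (0.89), *Unc5d* in immature excitatory cells (-0.14) and, in upper-layer against immature cells, *Ntn4* (1.12), *Ntng1* (0.78), *Dcc* (0.64) and *Neo1* (-0.12), and *Ntng1* in deep-layer cells (-0.043). At resolution 2 they were *Ntng1* in immature excitatory cells (0.28) and in CGE cells (-0.078), *Unc5c* in deep-layer cells (-0.16) and *Unc5b* in MGE cells (0.77). With 500 genes per cell they were *Ntng1* (-0.12) and *Unc5c* (-0.64) in deep-layer cells. With the usual doublet neighbours they were *Ntng1* in upper-layer (2.04) and MGE cells (-0.92), *Unc5b* (0.12) and *Unc5c* (-1.66) in deep-layer cells and *Unc5d* in MGE cells (-0.75), and with doublets kept *Ntng1* (1.60) and *Unc5c* (1.02) in vascular cells. The clusters behind a class change with these settings, and the cause was not tested. Leaving out an embryo turned no sign of a called pair, but gives no test.

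Over all genes, thinning left 1986 higher and 2311 lower calls in IPC-like against RGC-like cells (3483 and 3508 unthinned), and fewer in the other comparisons too, with 12850 genes tested. Resolution 2 gave 1482 and 1652 and kept doublets 1422 and 1550 in upper-layer against immature cells (2851 and 2565), and kept doublets 456 and 499 in CGE against MGE cells (1053 and 938). DESeq2 moved the median of all genes in vascular cells from -0.11 to 0.03.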

Other observations

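Classes with too few cells for testing also held netrin genes. Choroid plexus-like cells (26 and 23 cells) had 74.2 and 47.0 CPM of *Ntn1*, 98.9 and 86.1 CPM of *Ntng1* and 1975 and 1973 CPM of *Dcc*. Their *Unc5c* (42.4 and 172 CPM) and *Unc5d* (258 and 31.3 CPM) differed widely between the embryos. Microglia-like cells (18 and 23 cells) held no UMI of 7 of the 10 genes in either embryo, which allows up to 15.3 CPM for each in embryo 4. Fibroblast-like cells, nearly all from embryo 5 (48 cells), had 150 CPM of *Unc5c* and 141 CPM of *Neo1* there.

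Cluster 18, with *Dlx1*, *Dlx2* and cycling genes among its leading genes, had 12.4 and 40.8 CPM of *Ntn1* and 35.8 and 55.2 CPM of *Ntn4*. Its *Unc5d* was 428 CPM in embryo 4 and 24.0 CPM in embryo 5, and its *Neurod6*, a gene of excitatory neurons, was 130 and 11.4 CPM. The part of excitatory RNA in that difference was not tested.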
